A study of Mus musculus with 19 samples.

Results

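The expression of 9 genes of the perineuronal net and the brain extracellular matrix was followed through the depth of the primary somatosensory cortex (S1) of adult mice. The genes were taken by name, with earlier results of these data known, as 4 lecticans (Acan, Bcan, Ncan and Vcan), 3 link proteins (Hapln1, Hapln2 and Hapln4) and 2 tenascins (Tnr and Tnc). They are 9 of the 24130 Ensembl genes that were listed in at least 1 of the S1 libraries, and all 9 were found by their Ensembl identifiers. The tissue came from 56-day-old male mice of the strain labelled C57BL/6 (C57BL/6J in the study's methods) without any treatment or genetic change, and S1 was cut into 6 adjacent segments. Segment A held mostly layers 1 to 3 and B mostly layer 4. Layer 5 was divided into an upper part (C) and a lower part (D), while E covered layer 6 and F layer 6b. Cux2, a marker of upper layers, went from 37.9 FPKM in A to 2.82 in F, and Ctgf, a marker of layer 6b, from 1.24 in A to 167 in F. Segment B was sequenced as 2 libraries, B1 and B2, each pooled from the 4 mice of a litter. Each other segment was sequenced as 1 library pooled from 8 mice. Per the study's methods all segments came from the same 8 mice. A spread between pools of different mice can therefore be seen only in segment B (n = 2), and none between single mice. B1 and B2 also differed as libraries, with a mean insert of 239 and 193 nt and an estimated 48900000 and 74900000 fragments. The mean insert of the other libraries was 164 to 208 nt. The 12 samples of dorsal and lateral cortex were not analysed here.

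Perineuronal nets are lattices of extracellular matrix that wrap the cell body and proximal dendrites of certain neurons, in the cortex above all the fast-spiking interneurons that contain parvalbumin. Their backbone is hyaluronan, a long sugar polymer made at the cell membrane. Lecticans are chondroitin sulfate proteoglycans that bind hyaluronan at one end and tenascins at the other, link proteins of the Hapln family clamp the lectican to hyaluronan, and tenascin-R crosslinks the free ends. The same families also form the looser matrix between cells and the matrix around nodes of Ranvier in myelinated axons, where versican, tenascin-R and Hapln2 (also named Bral1) are found.

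Levels are FPKM, fragment counts scaled by the length of the gene model and by the number of mapped fragments in the library, so that levels of different genes can be compared per length of model. Each FPKM has a 95% interval that the quantification program gave for the estimate within that library, which holds no variation between mice. Depth was estimated at 31300000 to 74900000 fragments per library, and mitochondrial genes took 21.8% of the summed FPKM in A, 18.2% in B2 and 5.03% to 9.79% in the others. A gene was called classifiable when none of its 7 intervals was wider than 50% of the mean FPKM, which held for 11409 genes and for 7 of the 9 members. Vcan (widest interval 71.2% of the mean) and Tnc (69.4%) were not classifiable, so they stand outside the main test. Because the samples are bulk tissue, fewer cells of a type and less RNA per cell cannot be told apart.

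For the members the mouse genome places lecticans beside link proteins. In mm9 coordinates, Bcan (ENSMUSG00000004892, chr3:87791457-87804077, minus strand) lies 21905 bases from Hapln2 (ENSMUSG00000004894, chr3:87825983-87831362, minus strand), and Ncan (ENSMUSG00000002341, chr8:72616984-72644772, minus strand) lies 2387 bases from Hapln4 (ENSMUSG00000007594, chr8:72607428-72614596, plus strand). Vcan (ENSMUSG00000021614, chr13:89794915-89882117, minus strand) lies 43672 bases from Hapln1 (ENSMUSG00000021613, chr13:89680394-89751242, plus strand), with 0 listed genes inside any of these gaps. Acan (ENSMUSG00000030607, chr7:86198369-86259985, plus strand) ends 40 bases from the end of Hapln3, which is no member and runs on the minus strand. Because the libraries do not keep strand, fragments near that shared end cannot be assigned by strand. Tnr (ENSMUSG00000015829, chr1:161667641-161854606, plus strand) and Tnc (ENSMUSG00000028364, chr4:63620912-63707850, minus strand) have no member as neighbour.

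The upstream sequences of Bcan and Hapln2 are shown because these neighbours had the flattest and the steepest fitted slopes of the 7 classifiable members. Each run is the 250 bases before the RefSeq start in GRCm38.p6 (Bcan chr3:88000357-88000606 and Hapln2 chr3:88027512-88027761, both minus strand), written 5′ to 3′ with every CG dinucleotide in capitals.
Bcan: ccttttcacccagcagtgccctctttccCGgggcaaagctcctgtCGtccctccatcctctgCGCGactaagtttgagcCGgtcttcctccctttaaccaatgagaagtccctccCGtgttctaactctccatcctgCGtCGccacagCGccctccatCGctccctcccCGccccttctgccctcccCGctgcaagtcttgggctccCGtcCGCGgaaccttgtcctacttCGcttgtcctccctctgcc
Hapln2: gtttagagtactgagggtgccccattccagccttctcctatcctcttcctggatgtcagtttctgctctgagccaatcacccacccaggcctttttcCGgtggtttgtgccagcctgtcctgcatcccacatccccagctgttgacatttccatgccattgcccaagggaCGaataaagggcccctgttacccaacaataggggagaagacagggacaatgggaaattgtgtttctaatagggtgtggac
The Bcan run holds 16 CG dinucleotides, a number that 25.4% of the 32851 RefSeq promoter entries reach or exceed. The Hapln2 run holds 2, a number that 81.2% of the entries reach or exceed, and the median entry holds 6. Of the 9 members 8 had an entry, and the counts ranged from 2 in Hapln1, Hapln2 and Tnr to 26 in Acan. These counts describe the letters of the windows only.

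**Figure D1:**
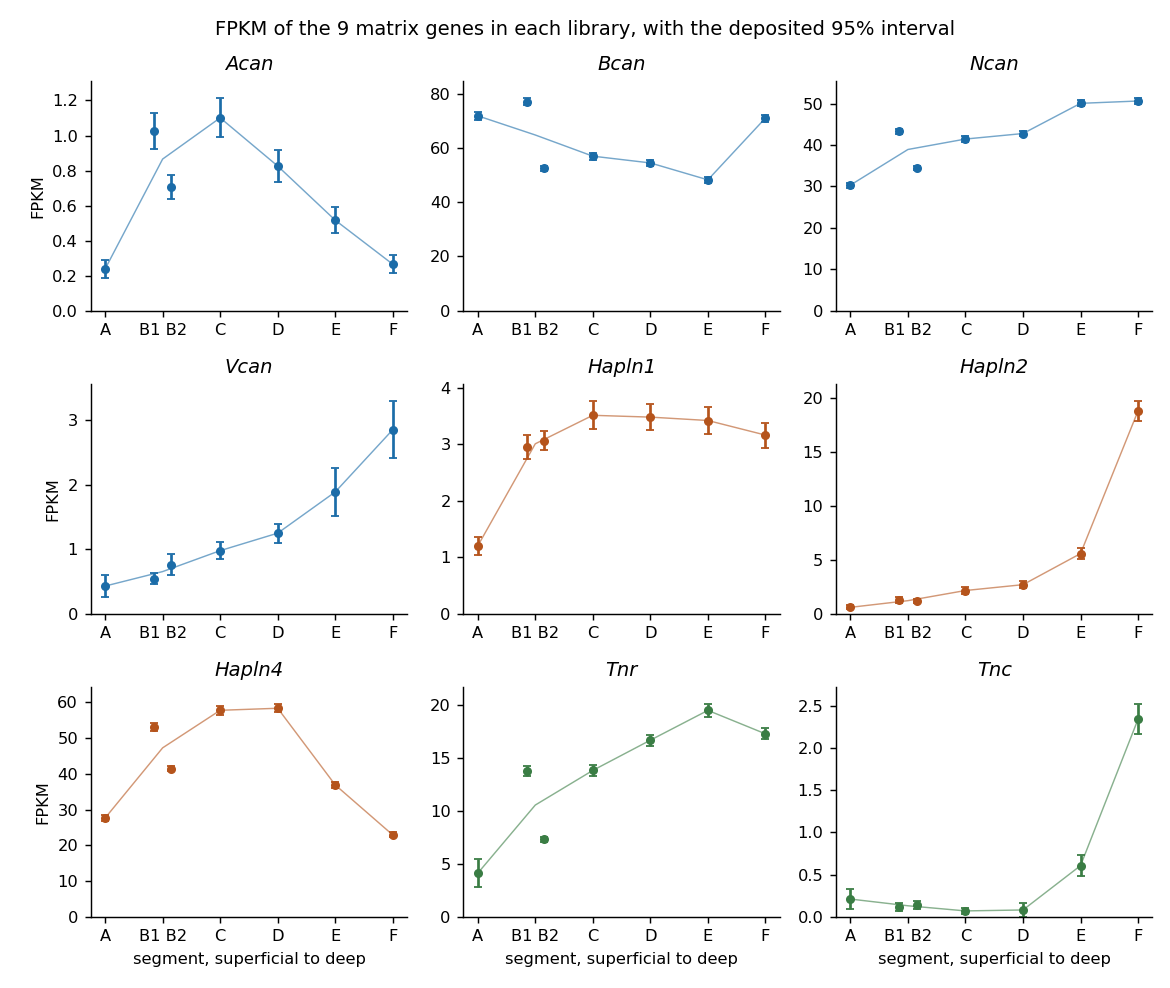
FPKM (vertical axis, from 0) of each of the 9 genes in the 7 libraries, ordered from superficial (A) to deep (F), with B1 and B2 side by side. Bars are the deposited 95% intervals within a library and the line joins the segments, with B as the mean of B1 and B2. Acan is highest in C and Hapln4 in D, Vcan, Hapln2 and Tnc are highest in F, and Hapln1 is lowest in A and nearly level below it.

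Laminar trends were tested with limma as a linear and a quadratic term in segment position on log2(FPKM + 0.1), with Benjamini-Hochberg adjustment over all classifiable genes. Of the 7 classifiable members 5 had a trend at an adjusted p under 0.05 (Acan, Hapln1, Hapln2, Hapln4 and Tnr), where 43.5% of all 11409 classifiable genes had one. The linear coefficient of this fit, tested apart, rose with depth in 4 of 7 (Ncan, Hapln1, Hapln2 and Tnr), against 34.8% of all genes. It fell in 0 of 7, against 6.41%. At an unadjusted p under 0.05 the count of falling slopes among the members was also 0, against 1060 of the 11409 classifiable genes. Without the library of A these counts turned: a trend was called in 3 of 7 (Acan, Hapln2 and Hapln4, against 10.1% of all genes), and the slope rose in 1 (Hapln2, against 14.3%) and fell in 2, against 3.87%. The falling slopes were then -0.32 for Acan (adjusted p = 0.023) and -0.22 for Hapln4 (adjusted p = 0.034). The median slope of the 7 was 0.13 log2 units per segment and that of all classifiable genes 0.09. Every library is scaled to its own total, and rescaling by the median of ratios lowered the level of all genes in the deep libraries relative to A, with log2 factors from -0.39 in A to 0.20 in F. After that rescaling the positive slopes among the called genes went from 81.5% to 52.6% of all called genes, and 4 of 7 members kept a trend (Acan, Hapln2, Hapln4 and Tnr, against 33% of all genes). The slope then rose in 2 (Hapln2 and Tnr, against 15.1%) and fell in 1 (Hapln4, against 13.8%).

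Aggrecan, the lectican most typical of perineuronal nets around cortical interneurons, was a low-abundance transcript with its maximum in the middle of the cortex. Acan was at 0.238 FPKM in A, 1.03 and 0.705 in B1 and B2, 1.10 and 0.826 in C and D, and 0.516 and 0.265 in E and F. The outer segments A and F were lowest and their intervals overlapped, while both B libraries, C, D and E lay above both of them with separate intervals. C was 4.64-fold above A and 4.16-fold above F, and B1 was 1.46-fold above B2. The trend was called (adjusted p = 0.010, limma) although the linear slope was near 0 (-0.08 ± 0.06 SE log2 units per segment). The quadratic coefficient was tested on its own after the mid-depth maximum had been seen, and it was negative at -0.27 ± 0.05 (adjusted p = 0.029). In all, 2 of 7 members had such a called mid-depth curvature, Acan and Hapln4, against 8.98% of all classifiable genes.

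Brevican, a lectican that both astrocytes and neurons express and that is part of nets and of perisynaptic matrix, was the most abundant member. Bcan stood at 71.8 FPKM in A, 77.1 and 52.5 in B1 and B2, 57 and 54.5 in C and D, and 48.2 and 71.0 in E and F. The high values were at both ends of the cortex and in B1, and the low ones in B2 and E. The largest fold between segments, 1.49-fold for A over E, was close to the 1.47-fold between B1 and B2. No trend was called (adjusted p = 0.33), and the slope was -0.04 ± 0.05 log2 units per segment.

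Neurocan, a lectican of the diffuse matrix that is most abundant in the developing brain, was higher in the deep segments. Ncan gave 30.3 FPKM in A, 43.3 and 34.5 in B1 and B2, 41.5 and 42.8 in C and D, and 50.1 and 50.7 in E and F. E and F were the highest and did not separate from each other, A was the lowest, and the value of B1 exceeded those of C and D. The slope was 0.13 ± 0.04 log2 units per segment (adjusted p = 0.038), but the trend of both terms was not called (adjusted p = 0.072). After the median of ratios the slope was 0.03 (adjusted p = 0.55).

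Versican, a large lectican of immature and white matter and of nodes, rose with depth. Vcan was at 0.428 FPKM in A, 0.544 and 0.760 in B1 and B2, 0.976 and 1.25 in C and D, and 1.88 and 2.85 in E and F. F lay above E and E above D with separate intervals. From A to D each library overlapped the next in the order of their levels, but C lay above B1 with separate intervals. F was 6.66-fold above A, while B1 was at 0.716 times the level of B2. In a fit of all listed genes, which drops the limit on interval width, the slope was 0.48 ± 0.04 log2 units per segment (adjusted p = 0.0034).

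The summed FPKM of the 4 lecticans lay between 88.5 in B2 and 124.8 in F, and its composition differed between segments. Bcan made up 69.9% of that sum in A, 63.2% and 59.3% in B1 and B2, 56.7% and 54.8% in C and D, and 47.9% and 56.9% in E and F. The ratio of Bcan to Ncan was 2.37 in A, 1.78 and 1.52 in B1 and B2, 1.37 and 1.27 in C and D, and 0.963 and 1.40 in E and F. It was highest in A and lowest in E, the only library in which Ncan exceeded Bcan, and the values of B1 and B2 both lay between those of A and C. A ratio within a library does not depend on how the library is scaled. Acan and Vcan together were a minor part, at most 1.10% (Acan, in C) and 2.28% (Vcan, in F) of the lectican FPKM.

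**Figure D2:**
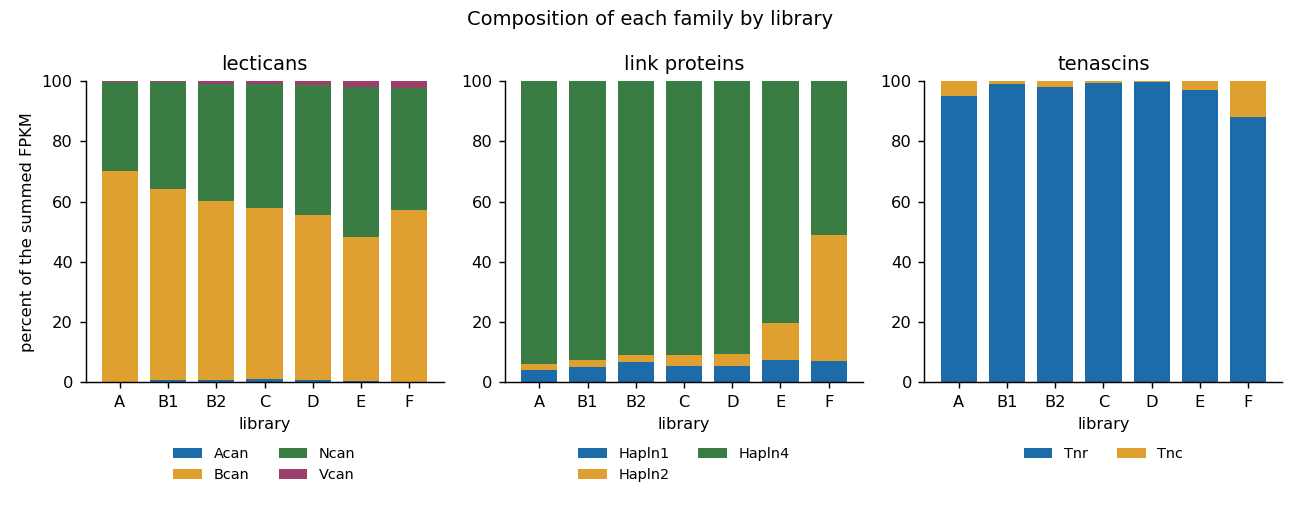
Percent of the summed FPKM of each family (vertical axis, 0 to 100) that each gene takes in each of the 7 libraries, without error bars. Bcan goes from 69.9% of the lecticans in A to 47.9% in E, Hapln2 takes 41.9% of the link proteins in F, and Tnc 11.9% of the tenascins in F.

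Among the link proteins, Hapln4 (also named Bral2), which binds brevican in nets, was the most abundant and had its maximum in layer 5. Hapln4 gave 27.6 FPKM in A, 53.1 and 41.5 in B1 and B2, 57.8 and 58.3 in C and D, and 36.9 and 22.9 in E and F. C and D were highest and did not separate from each other, and A and F were lowest. D was 2.55-fold above F and 2.11-fold above A, while B1 was 1.28-fold above B2. The trend was called (adjusted p = 0.0069) and the curvature was negative at -0.20 ± 0.03 (adjusted p = 0.025). The linear slope of -0.08 ± 0.04 was not called, its sign turned with the adjustment for GC content (0.02), and after the median of ratios it was -0.18 (adjusted p = 0.020).

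Hapln1, the cartilage link protein that is also needed for intact cortical nets, was lowest in the superficial segment. Hapln1 was at 1.2 FPKM in A, 2.95 and 3.07 in B1 and B2, 3.51 and 3.48 in C and D, and 3.42 and 3.16 in E and F. A was lowest, with an interval of 1.05 to 1.35 below those of the other 6 libraries. C also lay above both B libraries with separate intervals, while each library of the other 6 overlapped the next in the order of their levels. B1 and B2 differed by 0.963-fold, the smallest difference of the 9 members, and C was 2.93-fold above A. The trend was called (adjusted p = 0.021) with a slope of 0.18 ± 0.06. It was not called after the median of ratios (adjusted p = 0.071), after GC adjustment, where the slope was -0.0018, without C (adjusted p = 0.055) or without A, where the slope was 0.02.

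Hapln2, the link protein of nodes of Ranvier and a product of oligodendrocytes, had the steepest slope. Hapln2 rose from 0.589 FPKM in A to 1.27 and 1.1 in B1 and B2, 2.15 and 2.69 in C and D, and 5.57 and 18.8 in E and F. The order followed depth, with overlapping intervals only between B1 and B2 and between C and D. F was 31.9-fold above A and 3.38-fold above E, compared with 1.11-fold between B1 and B2. The slope of 0.86 ± 0.06 log2 units per segment (adjusted p = 7.7e-04) was called in every setting that gives a slope, over a range of 0.66 to 0.91.

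With these profiles the make-up of the link proteins differed most in the deep segments. Hapln4 took 93.9% of the link protein FPKM in A and at least 90.4% in each library from B1 to D, but 80.4% in E and 51.0% in F. Hapln2 took 2.0% in A, 4.17% in D and 12.2% in E, and its share in F was 41.9%. The ratio of Hapln4 to Hapln2 accordingly went from 46.9 in A to 6.62 in E and 1.22 in F, with 41.8 in B1 and 36.1 in B2.

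Tenascin-R, a product of oligodendrocyte lineage cells and some neurons and the main tenascin of adult nets, was higher with depth. Tnr gave 4.11 FPKM in A, 13.8 and 7.29 in B1 and B2, 13.8 and 16.6 in C and D, and 19.5 and 17.3 in E and F. E was highest, F and D did not separate, and A was lowest, but B1 matched C while B2 lay well below it. E was 4.74-fold above A, and the 1.89-fold difference between B1 and B2 was the largest of the 9 members. For comparison, the absolute log2 ratio of B1 to B2 was 0.92 for Tnr. Over all classifiable genes its median was 0.29 and its 95th percentile 1.075. The trend was called (adjusted p = 0.010), with a slope of 0.36 ± 0.07 (adjusted p = 0.0083). Without A the slope was 0.23 (adjusted p = 0.11) and the trend was not called.

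Tenascin-C, which is known from developing brain, reactive astrocytes and the subventricular zone, was low above layer 6. Tnc was at 0.210 FPKM in A, 0.118 and 0.143 in B1 and B2, 0.0695 and 0.0807 in C and D, and 0.605 and 2.34 in E and F. The 5 libraries from A to D overlapped between neighbours in that order, and E and F each stood above them with separate intervals. F was 3.86-fold above E and 33.6-fold above C. In the fit of all listed genes the slope was 0.56 ± 0.07 (adjusted p = 0.0065), although the values did not rise steadily and were lowest in C. The levels from A to D lay near the 0.1 FPKM added before the log, and this fit was run with that constant only. Tnr remained the main tenascin in every library, at 198.5 times the FPKM of Tnc in C and 7.37 times in F.

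The steps between neighbouring segments were counted by intervals that did not overlap, with both B libraries on the same side of the other segment. The shares of all genes are over classifiable genes, so the 7 classifiable members are counted and Vcan and Tnc are given apart. From A to B 6 of 7 members stepped up (all but Bcan) and 0 stepped down, where 62.8% of all genes stepped, 42.6% up and 20.2% down. From B to C 3 of 7 stepped up (Hapln1, Hapln2 and Hapln4), against 37.3% of all genes, 29.6% up and 7.7% down. From C to D Tnr stepped up and Acan and Bcan stepped down (3 of 7, against 34.3%). From D to E 6 of 7 stepped, with Ncan, Hapln2 and Tnr up and Acan, Bcan and Hapln4 down, against 45.1% of all genes, 27.7% up and 17.3% down. From E to F 5 of 7 stepped, with Bcan and Hapln2 up and Acan, Hapln4 and Tnr down, against 53.8% of all genes, 28.7% up and 25% down. Vcan and Tnc had separate intervals only from D to E and from E to F, both times higher in the deeper segment. These counts are to be read beside B1 and B2, the same layer in different litters, where 5 of 7 members (Acan, Bcan, Ncan, Hapln4 and Tnr, all lower in B2) and 66.4% of all classifiable genes also had separate intervals. The mitochondrial share was 7.76% in B1 and 18.2% in B2, and its part in that difference was not tested.

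**Figure D3:**
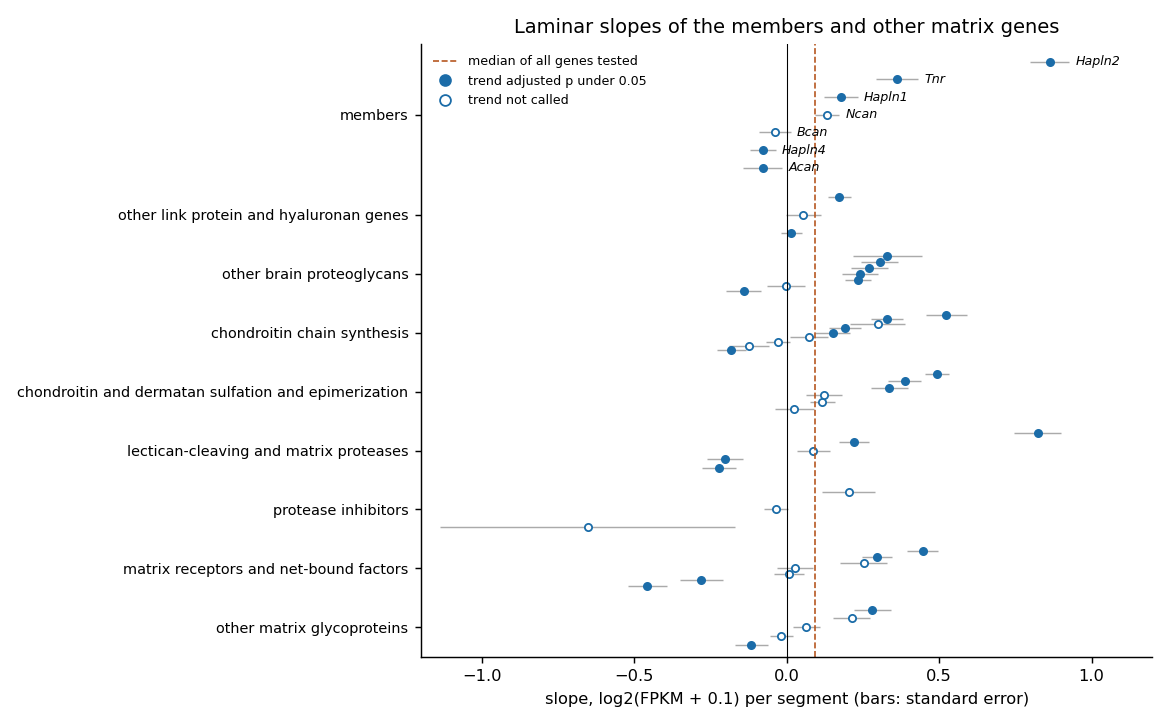
Linear slope in log2(FPKM + 0.1) per segment (horizontal axis, positive towards the deep segments) of the 7 classifiable members and the 45 classifiable genes of 8 other matrix lists, with standard errors. Filled points have a called trend and the dashed line is the median of all classifiable genes (0.09). Hapln2 (0.86) and Adamts4 (0.82) lie farthest to the right.

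Versican is made in several forms that differ by large exons for the attachment of chondroitin sulfate chains, GAG-alpha and GAG-beta. The form with only the alpha exon is known as V2 and is the main one of the adult brain, the form with only the beta exon is V1, and the form with neither is V3. The 3 Vcan transcripts analysed here, ENSMUST00000109543 (4335 nt), ENSMUST00000109544 (7215 nt) and ENSMUST00000109545 (9552 nt), differ in length from the shortest by exactly 2880 and 5217 nt, the lengths of the 2 large exons in GENCODE M21. No form with both large exons was among the Vcan transcripts listed in these libraries. ENSMUST00000109545 is not in M21, so its reading as V1 rests on the difference in length. Its junction is shown from Vcan-206, another transcript with the 5217-nt exon. The junctions that tell the forms apart are shown from the M21 transcripts (GRCm38, chromosome 13, minus strand), 30 bases of the shared exon at chr13:89712205-89712498 in lower case and 30 bases of the next exon in capitals.
Vcan-201 (neither large exon, next exon chr13:89685079-89685192): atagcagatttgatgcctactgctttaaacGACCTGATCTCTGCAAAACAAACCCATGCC
Vcan-202 (2880-nt exon, chr13:89702918-89705797): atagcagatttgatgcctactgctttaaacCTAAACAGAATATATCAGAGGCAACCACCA
Vcan-206 (5217-nt exon, chr13:89688285-89693501): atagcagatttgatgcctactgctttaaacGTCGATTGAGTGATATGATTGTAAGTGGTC

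The V2-type transcript with the 2880-nt exon had the highest FPKM in all 7 libraries. In A and B2, however, its interval overlapped that of the shortest transcript. The trend of the V2-type transcript was not tested, since no Vcan transcript was classifiable. It was at 0.209 FPKM in A, 0.445 and 0.356 in B1 and B2, 0.831 and 0.954 in C and D, and 1.21 and 1.86 in E and F. The V1-type transcript with the 5217-nt exon was at 0.0535 FPKM in A, 0.0989 and 0.121 in B1 and B2, 0.145 and 0.293 in C and D, and 0.444 and 0.614 in E and F. Both were lowest in A and highest in F, with intervals in F that lay above those in A. The share of the V1-type in the Vcan FPKM was 12.5% in A, 18.2% and 15.9% in the B libraries, 14.9% in C and 21.5% to 23.6% in D, E and F.

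The shortest transcript was listed in 4 libraries only, at 0.166 FPKM in A, 0.283 in B2, 0.235 in E and 0.380 in F, with an interval that reached 0 in E. It was not listed in B1, C and D. The deposited tables hold no transcript whose relative abundance, as the quantification program gives it, is under 0.05. The V2-type share ranged from 46.8% in B2 to 85.1% in C, and it was low in libraries where the shortest transcript was listed. Between B1 and B2, the same layer, the V2-type share was 81.8% and 46.8%, so the spread between these libraries covered most of its range over the segments.

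**Figure D4:**
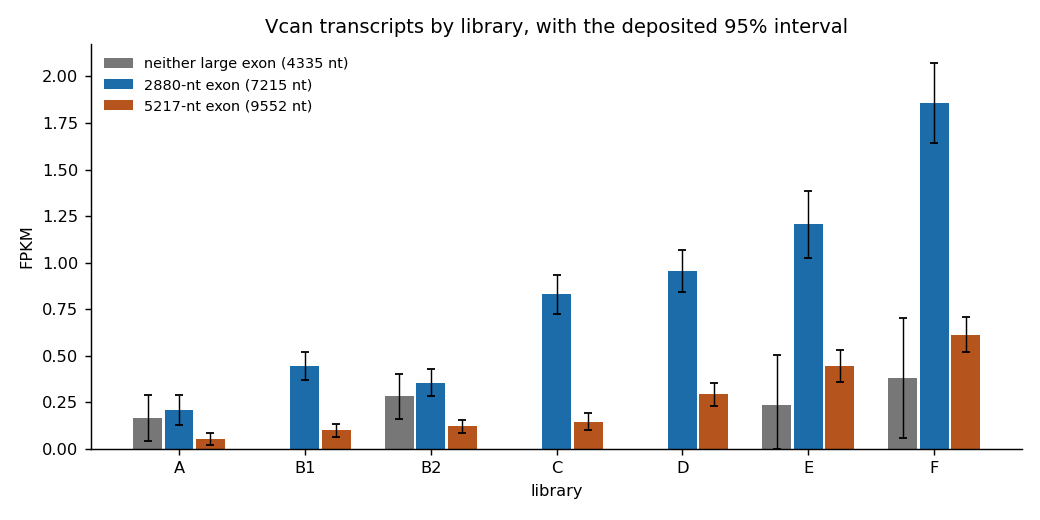
FPKM (vertical axis, from 0) of the 3 Vcan transcripts in the 7 libraries, with the deposited 95% intervals as bars, and no bar where a transcript was not listed. The transcript with the 2880-nt exon is highest in every library and goes from 0.209 in A to 1.86 in F. In A and B2 its interval overlaps that of the shortest transcript.

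For the other members the transcript models add little. Acan, Bcan, Ncan, Hapln1, Hapln2 and Hapln4 had 1 transcript each, so that the secreted and the membrane-anchored forms of brevican could not be separated. Tnr was carried by ENSMUST00000040797 in every library, and ENSMUST00000111669 was listed only in A, at 0.590 FPKM with an interval from 0 to 1.53. Tnc was carried mainly by ENSMUST00000107374 (5446 nt), the shortest of its 3 models, with 2.34 FPKM in F and 0.527 in E. In B1, where Tnc was low, its share was 42.4% and ENSMUST00000107379 was the higher. The longer models stayed at or below 0.0789 FPKM in every library (ENSMUST00000070019 in A and E, ENSMUST00000107379 in B1, B2 and D).

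The other genes of the matrix were taken as 8 lists with 67 genes, of which 66 were listed and 45 classifiable. A trend was called in 26 of 45, against 43.5% of all classifiable genes. The linear slope, tested apart from the trend over all 45, rose in 19 (against 34.8%) and fell in 5 (against 6.41%). After the median of ratios a trend was called in 18 of 45 (against 33% of all genes). The separate test of the slope then called 11 of the 45 as rising and 10 as falling (against 15.1% and 13.8%). Without A the trend was called in 10 of 45, against 10.1%. The median slope of the 45 genes was 0.12, close to the 0.09 of all classifiable genes, and 0.03 after that rescaling. Counts for single lists are given beside the shares of all genes, and no list was tested against them.

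The enzymes that build and modify the sugar chains of the lecticans moved in both directions. Of 9 classifiable genes of chain synthesis 5 had a trend, against 43.5% of all classifiable genes. The slope rose in 4 (against 34.8%) and fell in 1 (against 6.41%). Chsy3, a chondroitin synthase, gave 0.979 FPKM in A, 4.66 and 2.84 in B1 and B2, 6.10 and 7.90 in C and D, and 8.59 and 8.81 in E and F. Its slope was 0.52 ± 0.07, and the limma adjusted p of its trend was 0.0043. B3gat3, which adds the glucuronic acid that completes the linker to the core protein, was the most abundant of them and lower with depth. It went from 108 FPKM in A and 126 in B1 to 62.4 in E and 65.9 in F. Its slope was -0.18 ± 0.05, and the limma adjusted p of its trend was 0.049. Of 6 classifiable genes of sulfation and epimerization 3 had a trend (against 43.5% of all classifiable genes), all with rising slopes. Dsel, an epimerase of dermatan sulfate, went from 0.623 FPKM in A to 4.31 in F. Its slope was 0.49 ± 0.04, and the limma adjusted p of its trend was 0.0021. Chst12, a 4-O-sulfotransferase with the highest mean of that list, had no called trend and 6.54 to 12.2 FPKM.

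Proteases that cleave lecticans differed in direction. A trend was called in 4 of 5 classifiable genes, against 43.5% of all classifiable genes. There were 2 rising (against 34.8%) and 2 falling slopes (against 6.41%). Adamts4, an aggrecanase that also cleaves brevican and is known from oligodendrocytes, went from 1.07 FPKM in A, 3.53 and 2.36 in B1 and B2 and 4.72 in C to 6.48 in D, 10.9 in E and a maximum of 30.1 in F. Its values followed the order of depth but for B1 above B2. Its slope was 0.82 ± 0.08, and the limma adjusted p of its trend was 0.0031. Adamts8 was highest in the middle, with 0.529 FPKM in A, 1.80 and 1.31 in B1 and B2, 1.5 and 1.41 in C and D, and 0.762 and 0.309 in E and F (limma adjusted p = 0.0057).

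Among the inhibitors of matrix proteases, limma called a trend in 0 of 3 classifiable genes (against 43.5% of all classifiable genes). At an unadjusted p under 0.05 the count was also 0, against 6151 of all 11409 classifiable genes. Timp2, the most abundant of them, lay between 35.7 FPKM in B1 and 89.9 in F. Timp4, named after its values were seen, was listed at 0 in E and between 8.30 and 12.4 FPKM in the other libraries. The 0 in E, with an interval of 0 width, can be a failed estimate, and it enters the slope of Timp4 (-0.65 ± 0.48) and so the count of this list.

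The remaining lists held the hyaluronan enzymes, other proteoglycans, receptors and glycoproteins. Of 3 classifiable genes of the hyaluronan list 2 had a trend, against 43.5% of all classifiable genes. Hyal1, a hyaluronidase, was highest at both ends, with 2.19 FPKM in A, 0.945 in C and 2.32 in F (limma adjusted p = 0.0056), and its slope of 0.01 turned to -0.08 after the median of ratios. Hyal2 had the highest mean of that list and no called trend. Hapln3, the neighbour of Acan, was at 0.0880 to 0.363 FPKM.

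Of 7 classifiable proteoglycans 6 had a trend (against 43.5% of all classifiable genes), and 4 slopes rose (against 34.8%). Spock2 (testican-2), the most abundant, had 109 FPKM in A and 277 in E, with a slope of 0.23 ± 0.04. The limma adjusted p of its trend was 0.0084, and 0.051 after the median of ratios. Bgn (biglycan), known from meninges and vessels, had 7.44 FPKM in A, 1.6 in E and 3.85 in F (limma adjusted p = 0.0061). The summed FPKM of 6 meningeal markers was 34.0 in A and 4.03 to 6.80 in the other libraries, none of these markers was classifiable, and their part in the values of A was not tested.

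Of 7 classifiable receptors and net-bound factors 4 had a trend, against 43.5% of all classifiable genes. Cntn1 (contactin-1), a neuronal partner of tenascin-R, gave 19.3 FPKM in A and 119 in F, with a slope of 0.45 ± 0.05. Rtn4rl1, a receptor that binds chondroitin sulfate, gave 30.1 in A and 6.66 in F, with a slope of -0.46 ± 0.06. The limma adjusted p of the trend was 0.0033 for Cntn1 and 0.0062 for Rtn4rl1. Of 5 classifiable glycoproteins 2 had a trend, against the same share of all genes. Reln (reelin) was highest in C at 6.05 FPKM and lowest in F at 1.65 (limma adjusted p = 0.0077), and Lamc1, a laminin chain, rose from 1.53 in A to 5.92 in F (limma adjusted p = 0.024, and 0.072 after the median of ratios).

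Markers of the cells known to carry or make these matrix proteins moved with several members. A list for parvalbumin interneurons held 7 markers, among them Gad1, Gad2 and Slc32a1, which GABAergic neurons share in general. Its summed FPKM was 134 in A, 268 and 269 in B1 and B2, 355 and 348 in C and D, and 226 and 118 in E and F. As for Acan and Hapln4, the highest values were in C and D or C and B1, and the lowest in A and F. A trend was called in 6 of the 7 markers, against 43.5% of all classifiable genes. Linear slopes differed in direction, rising in 3 (Kcnc2, Gad1 and Gad2, against 34.8%) and falling in 1 (Pvalb, against 6.41%). The quadratic coefficient, looked at after the values were seen, was negative for each marker, from -0.16 (Gad2) to -0.48 (Syt2). That of Kcnc1 was not called (limma adjusted p = 0.062), and the share of all genes with a negative sign was not counted. Pvalb, the most abundant of them, had 61.1 FPKM in A, 70.2 and 118 in B1 and B2, 145 and 117 in C and D, and 56.4 and 16.5 in E and F. B1 and B2 did not differ in the summed markers, but single markers differed in both directions. Pvalb was lower in B1 than in B2, while Syt2 was higher, at 21.2 FPKM in B1 and 15.0 in B2. Acan was 1.46-fold and Hapln4 1.28-fold higher in B1. Whether the markers and these members are set by the same cells was not tested.

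The summed FPKM of 12 oligodendrocyte markers went from 344 in A to 875 and 890 in B1 and B2, 1716 and 2298 in C and D, and 4268 and 13000.0 in E and F. A trend and a rising slope were called in 12 of 12, against 43.5% and 34.8% of all classifiable genes. Per 1000 FPKM of these markers Hapln2 stood at 1.71 in A, 1.45 and 1.29 in B1 and B2, 1.25 and 1.17 in C and D, and 1.31 and 1.45 in E and F. By these values Hapln2 relative to the markers was highest in A and lowest in D, while its FPKM was lowest in A and highest in F. The rank of A is uncertain, since Hapln2 there had an interval of 0.412 to 0.767 FPKM, 60.3% of its value. The ratio of Tnc to these markers was highest in A at 0.610 per 1000 FPKM, lowest in D at 0.0351, and 0.180 in F. Tnc was low in A and D, with intervals of 0.0964 to 0.323 FPKM in A and 0 to 0.162 in D. The 5 markers of oligodendrocyte precursors also all had a rising slope (against 34.8% of all classifiable genes). Their sum was 21.1 FPKM in A, 52.8 and 34.4 in the B libraries, 94.9 in E and 239 in F. Relative to them Vcan ranged from 10.3 per 1000 FPKM in B1 to 22.1 in B2, the same layer. Tnr lay between 194 and 261 from A to E but at 72.2 in F. Over the 7 libraries Pearson's r of Vcan was 0.933 with the precursor list and 0.984 with the oligodendrocyte list. The precursor sum is carried by Olig1, at 53.1 FPKM in E and 133 in F, which mature oligodendrocytes also express. Pdgfra, a defining marker of precursors named after its values were seen, was at 5.51 FPKM in E and 8.05 in F, so the size of the low Tnr ratio in F depends on the genes in the list.

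**Figure D5:**
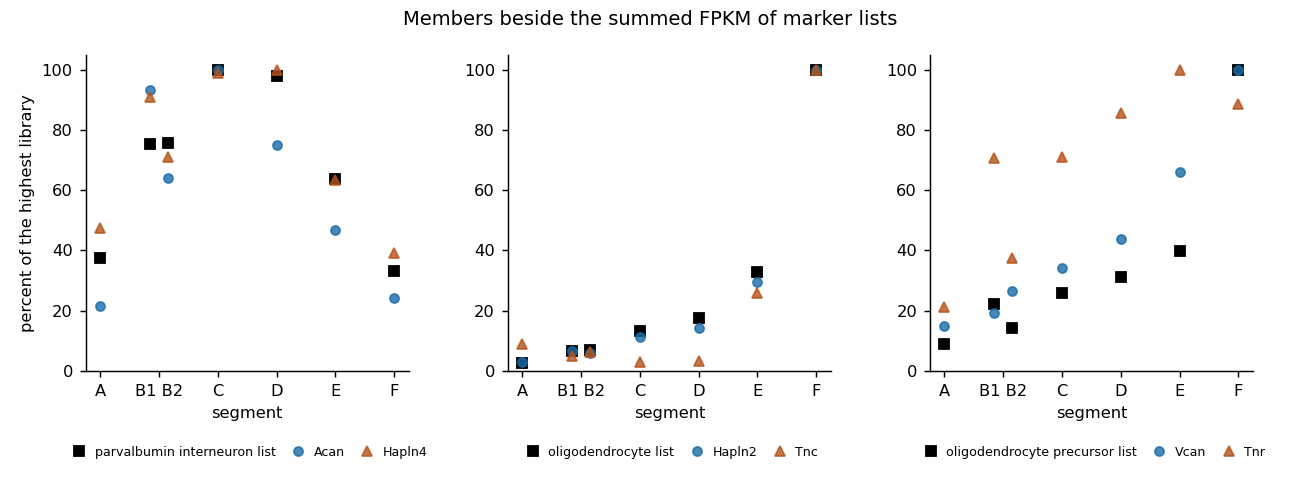
Members and marker lists as percent of their own highest library (vertical axis, 0 to 100) in the 7 libraries, with squares for the summed FPKM of a list. Acan and Hapln4 are drawn with the parvalbumin interneuron list, Hapln2 and Tnc with the oligodendrocyte list and Vcan and Tnr with the oligodendrocyte precursor list. Hapln2 stays beside its squares in every library, while Tnr lies above its squares in every library but F.

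The sum of 10 astrocyte markers, by contrast, lay between 780 FPKM in E and 1037 in F. Bcan was also lowest in E, while Ncan was highest in E and F. Per 1000 FPKM of the astrocyte markers Tnc stood at 0.243 in A, 0.0746 in C, 0.776 in E and 2.26 in F. The sum is weighted to Aldoc and Slc1a2, with mean levels of 344 and 268 FPKM, and single markers differed from it. A trend was called in 4 of 10 astrocyte markers, against 43.5% of all classifiable genes. Of these, 3 had a positive slope (Gfap 0.52, Aqp4 0.42 and Gja1 0.24) and 1 a negative slope (Gjb6 -0.06). Aldoc, the most abundant of the 10, had no called trend and went from 421 FPKM in A to 266 in E and 296 in F. The neuronal sum of 6 genes was also highest in the middle, with 1268 FPKM in A, 2809 in C, 2892 in D and 1927 in F. Over the 7 libraries, which share these differences in depth and make-up, Pearson's r of Acan was 0.946 with the parvalbumin list and 0.761 with the neuronal list. The r of Hapln4 was 0.973 and 0.717. The most abundant neuronal marker, Snap25, was at 490 FPKM in A and 1658 in D. Of the other lists, also against 43.5% of all classifiable genes, a trend was called in 2 of 5 markers of other interneurons. The most abundant of these, Cck, had no called trend and 506 FPKM in A. A trend was called in 1 of 4 markers of endothelium (Cldn5, 51.0 in A and 15.8 in E). For microglia it was called in 5 of 6, with a positive slope in 4 and a negative slope in 1 (C1qa, the most abundant, 44.2 in A and 17.4 in B2). For cortical layers it was called in 5 of 6 (Tbr1, 10.5 in A and 73.5 in E).

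The genes with the most similar profile to each member over the 7 libraries were found by Pearson's r of log2(FPKM + 0.1) among the other named classifiable genes (10800, or 10801 for Vcan and Tnc). With 7 points that share a dissection and a depth per library, many genes reach a high r, between 5 (for Bcan) and 856 (for Hapln1) above 0.95. The closest to Acan were Srxn1 (0.987) and Ccdc85a (0.986), to Bcan Galk1 (0.991) and Eif2b2 (0.974), to Ncan Supt6 (0.998) and Osbpl10 (0.992), and to Vcan Gm6829 (0.995) and Cat (0.994). The closest to Hapln1 were Scyl2 (0.998) and Ythdf1 (0.997) and to Tnr Ksr1 (0.996) and Hk1 (0.994).

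For Hapln4 the closest genes were Scn9a (0.988), a sodium channel, and Syt2 (0.984), a synaptotagmin of fast-spiking interneurons that is also in the parvalbumin list. Syt2 stood at 3.54 FPKM in A, 21.2 and 15.0 in B1 and B2, 26.4 and 23.7 in C and D, and 9.53 and 3.28 in E and F, with B1 above B2 as in Hapln4. For Hapln2 they were Arsg (0.998), a lysosomal sulfatase, and Ndrg1 (0.998), a gene known from myelinating glia, with 6.22 FPKM in A and 114 in F. For Tnc they were Cplx3 (0.990), a complexin of layer 6b neurons, and Thbs4 (0.990), a thrombospondin. Cplx3 stood at 9.24 FPKM in A, 3.23 and 3.22 in B1 and B2, 2.29 and 2.90 in C and D, and 30.5 and 164 in E and F. Since Cplx3 was chosen for its r with Tnc, its values are a description.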

How the data were processed

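Per the labels and the study's methods, poly(A) RNA was sequenced in pairs without strand, mapped to mm9 with TopHat 1.0.13 and quantified with Cufflinks 0.8.3 on Ensembl release 57. The authors deposited FPKM with 95% intervals, transcript coverage (signal) and a transcript's fraction of its locus. Coverage over FPKM, at 50 nt an end, gave the estimated depth. Genes not listed in a library were set to 0, and genes listed at more than 1 place were summed. GENCODE M21 was used by identifier for symbols, exons and GC content (94.7% of genes tested). Trends were fitted with limma 3.58.1 (R 4.3.3), and the fit was tested on simulated data. A p-value measures the spread around a smooth trend in single pooled libraries. The members and lists were chosen with earlier results of these data known. Every member and transcript was named, with from each matrix list the called rising and falling gene of smallest p and the highest mean, from each marker list the highest mean, and for each member the 2 genes of highest r. Alternatives changed the pseudocount, filter, scaling, GC, model and libraries, and those without both A and B2 and the curvature test were added after the data were seen. Transcripts were joined to genes by position and identifier, and their sums differed from the gene FPKM by at most 2.9e-04%.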

Additional observations from a re-analysis of the deposited data

How the results depend on the processing

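Against 5 of 7 members with a trend (4968 of 11409 genes), 4 to 6 had one with another pseudocount (0.01 or 1) or scaling or with B1 and B2 averaged. In these settings 3270 to 6049 of the 11409 genes had one. With no filter 7 of 9 members had a trend, Vcan and Tnc included (6140 of 24130 genes). A filter at a mean of at least 1 FPKM gave 5, with Vcan tested and Acan not (5749 of 13164 genes). A fit without the quadratic term called 2 members (Hapln2 and Tnr) and 13 other matrix genes. The 6 segments as a factor, whose only spread is B1 against B2, called 0 and 0. At an unadjusted p under 0.05 the factor called 2 members and 2111 of all genes. Leaving out 1 library gave 3 to 6 members, 10 to 28 other matrix genes and 1147 to 6611 of all genes, with the fewest of each without A. Leaving out A and B2 together, added after seeing the data, called 3 (Acan, Hapln2 and Hapln4) and 7. Hapln2 was the only member called in every setting with a slope term. The slope of Acan ranged from -0.32 to 0.13 and that of Hapln4 from -0.22 to 0.10 when a library was left out, both positive without F only, and GC adjustment turned the slopes of Hapln4 (0.017) and Hapln1 (-0.0018). Tnr lost its slope call without A. Intervals widened 2 times left 1 of the 9 members separate from B to C and 1 from C to D. Using only B2 or only B1 gave 7 and 6 of the 9 members from B to C, where both together gave 3. The 6 with only B1 include Vcan, which is not classifiable. Directions also differed, since Bcan and Ncan were higher in C than in B2 but lower in C than in B1. The share of all genes was not counted in these settings. Over all genes, trend calls went from 4968 to 3270 with GC adjustment, 2132 with a linear term, 1147 without A, 3295 without C and 637 without A and B2. The cause of these changes was not tested. Vcan and Tnc shares could not be recomputed on classifiable transcripts, since none of theirs was. The segments came from the same mice, but no paired analysis was possible, because the mice were pooled and only segment B has more than 1 replicate.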
